A study of Mus musculus with 10 samples.

Results

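The SR proteins and the hnRNPs are the main families of RNA-binding proteins that set which exons are kept during pre-mRNA splicing. The genes described here are all those whose symbol starts with Srsf or Hnrnp, without Hnrnpl and Hnrnpll, which gave 29 of the 22380 quantified genes (11 Srsf and 18 Hnrnp genes) and 154 of the 64019 quantified transcripts. They were measured by RNA-seq in antigen-specific germinal center B cells (NP+GL7+IgD-), sorted 2 weeks after mice were immunized with NP-OVA in Alhydrogel. The ZBTB38 WT mice carried Zbtb38fl/fl without Cre (2 libraries), the ZBTB38 HET mice Zbtb38fl/+ x Vav-Cre (2 libraries) and the ZBTB38 KO mice Zbtb38fl/fl x Vav-Cre (6 libraries), each library being from a different mouse. The line was kept by backcrossing to the C57Bl6/N strain, and the age of the mice was not stated. Its floxed allele was made in C57Bl6/J zygotes. The floxed allele, with loxP sites around exon 3 of Zbtb38, came from a single founder. Vav-Cre acts in hematopoietic cells in general, so the deletion was not limited to B cells, and the WT mice differed from both other groups in carrying no Cre. The question was whether loss of ZBTB38, a BTB zinc finger protein that binds methylated DNA, goes with other levels or other transcripts of these regulators.

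SR proteins carry an RNA recognition motif and a domain rich in arginine and serine, and most bind exonic enhancers, where they recruit U1 and U2 components to the neighboring splice sites. Many hnRNPs bind exonic or intronic silencers and oppose them, and in lymphocytes hnRNPs are known for repressing the variable exons of CD45. Many of these proteins limit their own level: they promote a splice choice in their own pre-mRNA that exposes an early stop codon, and the transcript is then removed by nonsense-mediated decay (NMD). In SR genes the early stop often lies in a cassette known as a poison exon, several of which overlap ultraconserved elements of the genome.

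The stop codons of the more abundant NMD-typed transcripts, not all of them early, lay in different kinds of exon in the Srsf and Hnrnp families. Of the 154 transcripts, 123 were typed as protein coding and 31 as NMD targets in the Gencode vM21 annotation (mouse build GRCm38), to which all 154 were matched by identifier. Of these 31, 16 took at least 5% of the TPM of their gene on average over the 10 libraries, 9 from 6 Srsf genes and 7 from 6 Hnrnp genes. The stop codon lay in an exon that the longest coding transcript of the gene lacks altogether in 7 of the 9 Srsf transcripts and in 0 of the 7 Hnrnp transcripts. Among all 31 it was 8 of 13 and 0 of 18. The sequences below are shown because they are the coding stretches of those exons, from the first base of the exon to the early stop, with the stop codon in capitals. The last, from Hnrnpu, is shown for contrast, as its exon is also part of the coding transcript. Hnrnpu-206 has 2382 annotated coding bases, beside 2403 in the coding Hnrnpu-201, so its stop comes late. All are on GRCm38 and are written in the direction of transcription, as Gencode vM21 gives them.
Srsf3-201, chr17:29039454-29039487, plus strand: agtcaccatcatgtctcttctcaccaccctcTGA
Srsf6-201, chr2:162932815-162932966, plus strand: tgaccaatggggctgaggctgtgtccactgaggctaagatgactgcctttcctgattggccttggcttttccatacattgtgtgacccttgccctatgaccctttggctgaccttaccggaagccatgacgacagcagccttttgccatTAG
Srsf4-204, chr4:131884295-131884390, plus strand: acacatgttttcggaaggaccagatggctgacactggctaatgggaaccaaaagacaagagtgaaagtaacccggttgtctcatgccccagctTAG
Srsf11-206 and Srsf11-210, chr3:158024209-158024231, minus strand: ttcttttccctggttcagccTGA
Srsf11-212, chr3:158023310-158023359, minus strand: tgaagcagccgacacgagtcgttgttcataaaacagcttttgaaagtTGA
Hnrnpu-206, chr1:178325281-178325313, minus strand: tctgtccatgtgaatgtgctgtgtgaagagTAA

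The Srsf3 exon is 456 bases long and its stop was reached after 31 bases, 548 bases upstream of the last exon junction of the transcript. The Srsf6 exon is 268 bases long and its stop lay 534 bases upstream of the last junction. In Srsf11 a 109-base and a 117-base exon each held a stop, and in Srsf4 the same stop served Srsf4-203 and Srsf4-204. The exon is number 2 in Srsf4-203, from base 131884276, and number 1 in Srsf4-204, from base 131884295. The Srsf4 sequence above therefore begins at the annotated start of Srsf4-204. The remaining abundant Srsf transcripts were Srsf2-204, whose stop is that of the coding transcript and is followed by further junctions, and Srsf1-204, whose stop lies in an exon the coding transcript also contains. Of the 7 Hnrnp transcripts, 3 (Hnrnpdl-201, Hnrnpa1-203 and Hnrnpd-208) used the stop of the coding transcript with a further junction downstream. In Hnrnpu-206, Hnrnph3-204 and Hnrnpr-206 it lay in an exon the coding transcript contains, and in Hnrnpdl-205 in one it contains in part.

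The libraries held between 26612431 and 41059082 estimated counts. Zbtb38, the targeted gene, was at 152 to 162 CPM (estimated counts scaled to a common library size) in WT, 106 to 117 in HET and 18.6 to 50.3 in KO, so each library followed its label. Its log2 fold change was 2.31 (SE 0.274, adjusted p = 0.0734 in edgeR's quasi-likelihood test) for WT over KO, and it was the 1 gene called in that comparison. Its fold was smaller on length-scaled values, at 1.34 on log2(TPM + 1), where the call was lost. The germinal center B cell markers (9 of 9 found, Bcl6 among them) summed to 7277 to 10190 CPM over all libraries. Markers of other cells differed between groups. The 8 myeloid markers summed to 486 to 614 CPM in WT, 93.8 to 100.1 in HET and 82.4 to 801 in KO, the 6 naive B cell markers to 829 to 938, 414 to 455 and 521 to 1325, and the 8 T cell markers to 283 to 284, 192 to 195 and 186 to 275. The 5 plasma cell markers ranged from 1163 to 1744 CPM and the 6 erythroid markers summed to 44.8 to 57.1 CPM in WT, 35.5 to 38.8 in HET and 56.1 to 96.5 in KO, and no marker was at 0 in all libraries. In sorted bulk cells, fewer cells of a type and less RNA per cell cannot be told apart.

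Most SR and hnRNP genes were abundant in germinal center B cells. Their levels are given in TPM, which are corrected for length and can be compared between genes. Of the 29 genes, 24 had a mean above 100 TPM, against 10.2% of the 17514 genes with any signal. The 11 Srsf genes summed to 2905 TPM and the 18 Hnrnp genes to 8081 TPM on average, which was 0.29% and 0.81% of all transcripts. The lower end was set apart, as Hnrnpa0 was at 13.5 TPM, Hnrnpul2 at 5.69 TPM and Srsf12 at 0.09 TPM, while the next gene above them, Hnrnpul1, was at 71.6 TPM.

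**Figure D1:**
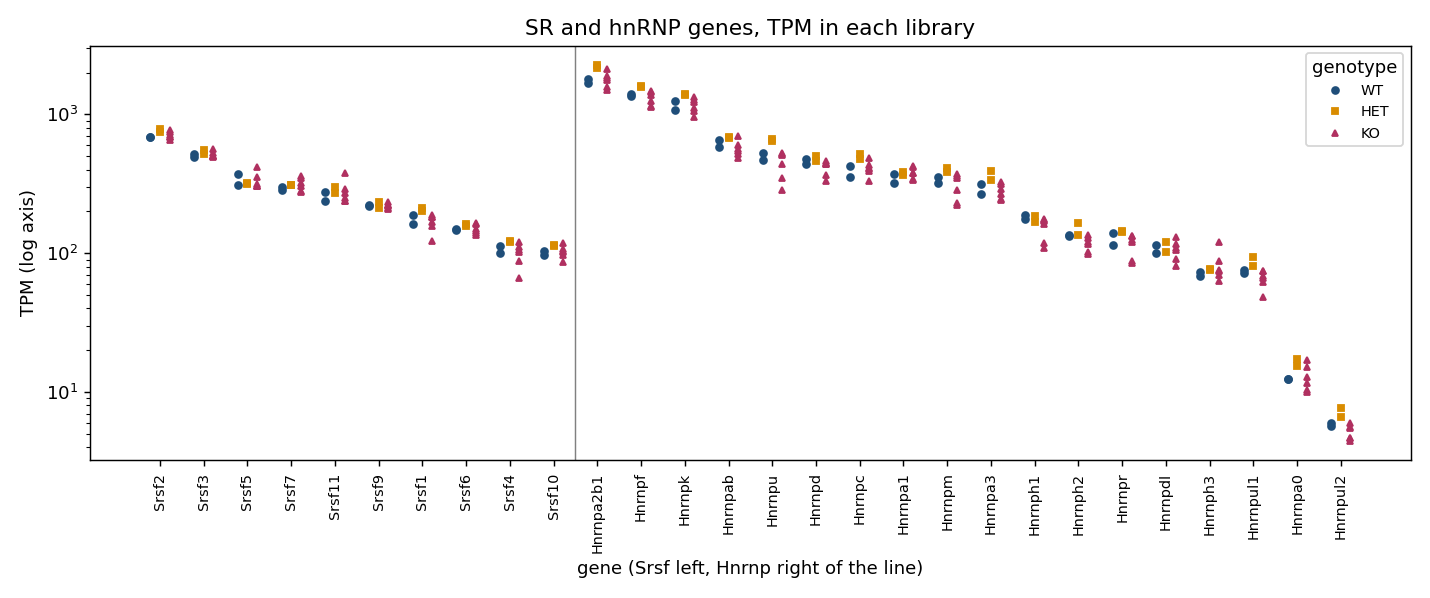
TPM (log axis) of 10 Srsf and 18 Hnrnp genes in each library, ordered by mean level within each family. Srsf12, at 0.09 TPM on average, is left out. Hnrnpa2b1 leads with a mean of 1858 TPM, and the HET libraries (squares) lie above both WT libraries (circles) for most genes, while the KO libraries (triangles) spread around both.

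Among the SR genes, Srsf2 was the most abundant. Srsf2, an SR protein that stays in the nucleus, was at 685 and 688 TPM in WT, at 781 and 746 TPM in HET, and in KO the lowest, median and highest values were 656, 698 and 774 TPM. Srsf3, the smallest SR protein, which also takes part in mRNA export and the end processing of transcripts, was at 516 and 494 TPM in WT, 522 and 549 in HET, and 497, 501 and 561 in KO. In both genes the KO libraries overlapped with WT and HET, and the whole spread over the 10 libraries was small, at 1.19-fold for Srsf2 and 1.14-fold for Srsf3. Srsf5 was at 307 and 373 TPM in WT, 322 and 316 in HET, and 303, 311 and 417 in KO. Srsf7, which shares its export role with Srsf3, was at 297 and 287 TPM in WT, 312 and 310 in HET, and 276, 311 and 357 in KO. Neighbors in the order of mean levels, Srsf5 and Srsf7 overlapped in the KO libraries and not in the WT or HET libraries. Srsf12, the rarest member, had 23.0 and 5.0 estimated reads in the WT libraries, 1.0 and 1.0 in HET, and at most 9.0 in KO, of which 2 libraries had 0. It did not pass the filter on low counts, so 28 of the 29 genes were tested.

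Among the hnRNPs, Hnrnpa2b1, which binds RNA in the nucleus and sorts RNAs for transport, was the most abundant. It was at 1812 and 1681 TPM in WT, at 2160 and 2277 TPM in HET, and at 1502, 1796 and 2109 TPM (lowest, median and highest) in KO. Hnrnpf, which binds G-rich tracts, was at 1391 and 1362 TPM in WT, 1562 and 1596 in HET, and 1129, 1312 and 1466 in KO. Both genes were higher in each HET library than in any other library. Hnrnpk, a binder of C-rich RNA and DNA, was at 1248 and 1072 TPM in WT, 1407 and 1370 in HET, and 953, 1173 and 1333 in KO. Hnrnpab was at 658 and 582 TPM in WT, 675 and 689 in HET, and 481, 555 and 701 in KO, so here the HET values lay within the KO range. Hnrnpul2, the least abundant hnRNP, was at 6.00 and 5.66 TPM in WT, 6.62 and 7.67 in HET, and 4.44, 5.10 and 6.03 in KO. Hnrnph1 and Hnrnph2 encode nearly identical proteins, and processed copies of Hnrnpa1 lie elsewhere in the genome, so the division of reads among such genes is uncertain.

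On the summed scale the SR genes stood at 2831 ± 18.8 TPM in WT (SD, n = 2), 3037 ± 30.0 in HET (SD, n = 2) and 2886 ± 191 in KO (SD, n = 6). The hnRNP genes stood at 7931 ± 498 TPM in WT, 9408 ± 194 in HET and 7689 ± 951 in KO. Both HET libraries were above all KO libraries in the hnRNP sum but not in the SR sum, in which KO replicate 2 reached 3218 TPM. KO replicates 1 and 6 had the lowest hnRNP sums, 6686 and 6420 TPM, and the value of 12 and 14 of the 28 genes was lowest of all KO libraries in these 2 libraries. After scaling to CPM this changed for KO replicate 1, which was then the lowest KO library for 2 genes and the highest for 10. KO replicate 6 was still the lowest for 10 of the 28 genes, and KO replicate 4 for 11. KO replicate 6 also had the highest sum of naive B cell markers, and the part of this in the levels was not tested.

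**Figure D2:**
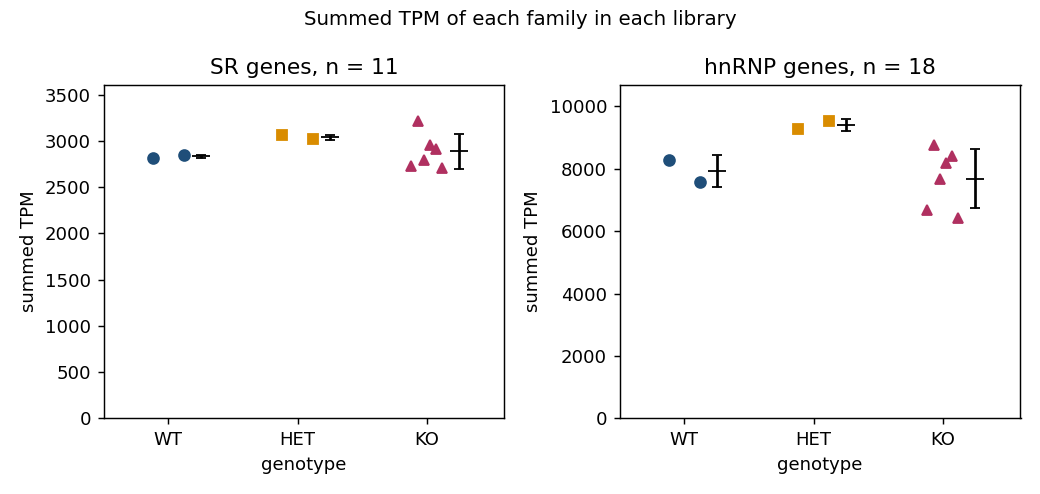
Summed TPM of the 11 SR genes (left) and the 18 hnRNP genes (right) in each library, by genotype. Black bars give the mean and SD of each group. The HET libraries reach 9271 and 9546 TPM in the hnRNP sum, above the highest KO library at 8771 TPM.

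No SR or hnRNP gene was called between WT and KO. At an adjusted p under 0.1 in edgeR, 0 of 28 genes passed, against 0.00704% of the 14203 genes tested, and at an unadjusted p under 0.05 it was again 0 of 28, against 2.19%. DESeq2 also called 0 of the 28 and had 2 at an unadjusted p under 0.05, against 2.99% of all genes. The log2 fold changes on the CPM scale ran from -0.29 to 0.14, and the 95% intervals of all 28 genes lay within 1 log2 unit of 0. All 10 SR genes tested were lower in WT, with a median of -0.15, while 11 hnRNP genes were lower and 7 higher, with a median of -0.04. It was 8 of 11 SR genes without WT replicate 2, when Srsf12 was also tested, and 9 of 10 without WT replicate 1. The median over all genes tested was -0.01. These directions depend on the scale. With log2(TPM + 1) in limma the median of all genes moved to 0.11 and that of the 28 members to 0.04, and 6 SR and 5 hnRNP genes were then lower in WT. Relative to the median of all genes, 9 of the 10 SR genes were still on the lower side.

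The largest differences were those of Hnrnph3, Hnrnpa1 and Srsf7, which were singled out after their values were seen, as the rule for naming genes takes Srsf7 alone. Hnrnpa1, an antagonist of SR proteins at many exons, was at 401 and 338 CPM in WT, at 428 and 400 CPM in HET, and between 390 and 483 CPM in KO, and the ranges overlapped. Its log2 fold change for WT over KO was -0.28 (SE 0.132, adjusted p = 0.999 in edgeR). Hnrnph3 had -0.29 (SE 0.171, adjusted p = 0.999 in edgeR), and its KO libraries were spread widely, from 75.6 to 111 CPM. Srsf2 and Hnrnpa2b1, the leading members of both families, had -0.21 (SE 0.144) and -0.16 (SE 0.124), and neither passed.

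Srsf7 was at 447 and 421 CPM in WT, at 477 and 463 CPM in HET, and at 490, 508 and 552 CPM (lowest, median and highest) in KO. On this scale the 4 control libraries did not overlap with the KO libraries. It was the 1 of 28 genes of which this held, against 1.51% of the 13341 genes with a mean of at least 10 estimated counts. On the TPM scale the same gene overlapped, with 276 to 357 TPM in KO around the 287 to 312 TPM of the controls. Its log2 fold change was -0.24 (SE 0.113) for WT over KO and -0.18 (SE 0.0809, adjusted p = 0.744 in edgeR) for WT plus HET over KO.

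**Figure D3:**
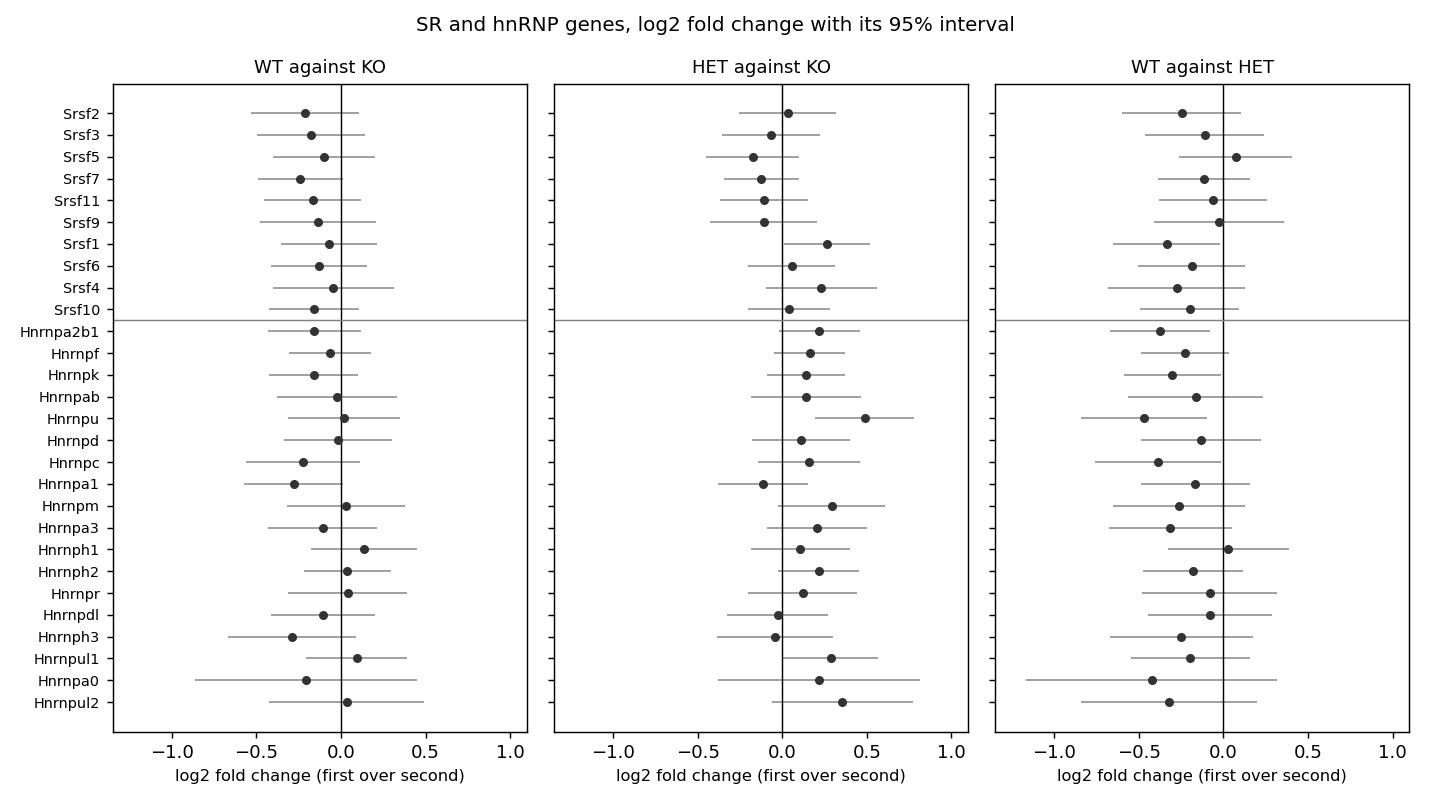
Log2 fold change of 10 Srsf (top) and 18 Hnrnp genes (bottom) in 3 comparisons, as fitted by edgeR on counts. Points give the estimate and lines its 95% interval. All 10 SR genes lie left of 0 in WT against KO (6 of 10 on log2(TPM + 1)), and most hnRNP genes lie right of 0 in HET against KO and left of 0 in WT against HET, with intervals that mostly cross 0.

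With WT and HET pooled as 4 controls against 6 KO libraries, again 0 of 28 genes were called, against 0.00749% of 13347 genes. Srsf7 was the 1 of 28 at an unadjusted p under 0.05, against 6.3% of all genes, and the count was between 0 and 2 when single libraries were left out. The median of the 28 was 0.03, beside -0.02 over all genes, with 8 of 10 SR genes lower and 13 of 18 hnRNP genes higher in the controls. It was -0.02 without HET replicate 1, -0.03 without HET replicate 2, -0.01 without KO replicate 4 and -0.01 without KO replicate 6. On log2(TPM + 1) it was 3 SR genes lower and 16 hnRNP genes higher. Hnrnpa1 remained at -0.20 (SE 0.097, adjusted p = 0.744 in edgeR). The hnRNP median was 0.05 with the controls pooled, -0.04 for WT alone over KO and 0.16 for HET alone over KO.

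The HET libraries had the highest hnRNP levels, though no gene passed the adjusted threshold. Of the 28 genes, 22 had both HET libraries above both WT libraries in CPM, against 24.6% of the 13341 genes, and 8 had both above all 6 KO libraries, against 8.57%. In WT against HET, 26 of 28 genes were lower in WT (9 of 10 SR and 17 of 18 hnRNP genes), with a median of -0.20 beside 0.01 over all genes. The split was the same on log2(TPM + 1). edgeR called 0 of 28, against 0.00697% of 14354 genes, and 5 were at an unadjusted p under 0.05, all lower in WT, against 6.42% of all genes in either direction and 2.44% in that direction. On log2(TPM + 1) in limma that count was 0 of 28, beside 847 of 14354 genes. With counts scaled by transcript length it was 2 of 28. The edgeR count was 0 of 29 without WT replicate 2 or without HET replicate 2, and 1 of 29 without HET replicate 1. Srsf12 then passed the filter on low counts. The 5 genes of the main fit were named after their values were seen. They were Hnrnpu (-0.47, SE 0.170), Hnrnpc (-0.39, SE 0.171), Hnrnpa2b1 (-0.38, SE 0.135), Srsf1 (-0.34, SE 0.145) and Hnrnpk (-0.30, SE 0.131), with adjusted p of 0.709 to 0.767 in edgeR. The fit took its spread from all 10 libraries. When it was limited to the 2 WT and 2 HET libraries, 523 of 13220 genes were called. Of the 28 members, 2 were called, Hnrnpu (adjusted p = 0.0608) and Hnrnpa2b1 (adjusted p = 0.0864, both edgeR). The sums of the myeloid, naive B, T cell and erythroid markers given above were also lower in both HET than in both WT libraries. So was the sum of the plasma cell markers, at 1270 and 1179 CPM in HET beside 1583 and 1377 in WT. The part of these markers in the differences was not tested.

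In HET against KO, 20 of 28 genes were higher in HET, 15 of them hnRNP genes, and the median was 0.13 beside -0.07 over all genes. The naive B cell markers (414 to 455 CPM in HET, 521 to 1325 in KO) and the erythroid markers (35.5 to 38.8 in HET, 56.1 to 96.5 in KO) were lower in both HET libraries than in all KO libraries, and their part in these differences was not tested. edgeR called 0 of 28, against 0.00697% of 14354 genes. The gene called was not Zbtb38, whose log2 fold change was 1.82 (SE 0.261, adjusted p = 0.128 in edgeR). The edgeR fit thus missed the targeted gene itself, which DESeq2 called. At an unadjusted p under 0.05 there were 3 of 28, all higher in HET, against 10.2% in either direction and 5.46% in that direction, and the count was 1 of 29, with Srsf12, when either HET replicate was left out. They were Hnrnpu, Hnrnpul1 and Srsf1, also named after their values were seen. Hnrnpu, the nuclear scaffold protein SAF-A, was at 1321 and 1162 CPM in WT, at 1710 and 1730 CPM in HET, and from 993 to 1399 CPM in KO. The HET libraries did not overlap with either other group. Its log2 fold change for HET over KO was 0.49 (SE 0.135, adjusted p = 0.323 in edgeR), and DESeq2 called it (adjusted p = 0.0365). DESeq2 called 1 of 28 members, beside 458 of 14354 genes, so members were called about as often as all genes. Srsf1, the founding SR protein, was at 395 and 331 CPM in WT, 477 and 438 in HET, and from 348 to 417 in KO, with a log2 fold change of 0.26 (SE 0.117). Hnrnpul1 had 0.29 (SE 0.129), and its lower HET library, at 168.1 CPM, barely exceeded the highest KO library at 167.8 CPM. HET and WT share no library, but each comparison with KO uses the same 6 KO libraries. The comparisons of HET with WT and with KO also rest on the same 2 HET libraries.

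The replicates of a gene within KO were close. The median SD of log2(CPM + 1) over the 6 KO libraries was 0.165 for the 28 genes, and 0.219 for the 2428 genes with a mean above 100 CPM, to which 25 of the 28 belong. The 3 most variable members were Hnrnpa0 (SD 0.407), Hnrnpab (0.206) and Srsf4 (0.203). Hnrnpa0, an intronless and weakly expressed hnRNP, ran from 17.0 CPM in KO replicate 4 to 35.3 CPM in KO replicate 1, and both HET libraries (28.2 and 31.1 CPM) and both WT libraries (22.4 and 21.7 CPM) lay inside that range.

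Of the 29 genes, 26 had several transcripts, up to 21 for Hnrnpk. One transcript took more than 50% of the TPM in 16 of the 26, and the leading one was of the NMD type in 2, Hnrnpu and Hnrnph3. Hnrnpu-206 took 81.7% and 81.7% of Hnrnpu TPM in WT, 79.7% and 80.1% in HET, and 78.4% to 81.7% in KO. By estimated counts its mean share was 59.2% rather than 80.1%. Its annotated coding sequence, of 2382 bases, is nearly as long as the 2403 bases of the coding Hnrnpu-201. In Srsf3 the coding Srsf3-202 and the NMD-typed Srsf3-201 were close, at 50.8% and 49.2% on average. Srsf3-201 took 50.1% and 49.4% in WT, 48.0% and 50.8% in HET, and 43.3%, 49.97% and 53.7% (lowest, median and highest) in KO. So the Srsf3 poison exon transcript made up about as much of the Srsf3 signal as the coding one in every genotype, and it was 41.2% of the estimated counts. The Srsf3 transcripts also differ in the length of their ends, and their annotated ends in vM21 differ from those in the files.

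Srsf6-201 was next among the SR genes, with 40.3% and 36.8% in WT, 33.8% and 34.0% in HET, and 33.8%, 40.5% and 54.9% in KO. The highest value was that of KO replicate 6, and the other KO libraries reached 42.5%. Srsf2-204 took 30.6% and 32.0% in WT, 29.1% and 23.9% in HET, and 26.4% to 34.4% in KO. Its mean share of counts was only 8.96%. It is a 620-base transcript with 59 annotated coding bases, and TPM divides counts by length, so a short transcript weighs more in TPM than in counts. The same holds for the 3 Srsf11 transcripts, which together took 27.0% of TPM and 5.79% of counts. Srsf4-204 took 14.3% of TPM on average and Srsf1-204 5.62%. Among hnRNP genes, Hnrnph3-204 took 33.3%, Hnrnpdl-201 14.1% and Hnrnpa1-203 9.39%, and in each of these the KO libraries overlapped with WT and HET. All 154 transcripts were of the coding or NMD type, so reads from introns that remained in a transcript could only be given to one of these, or to none.

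**Figure D4:**
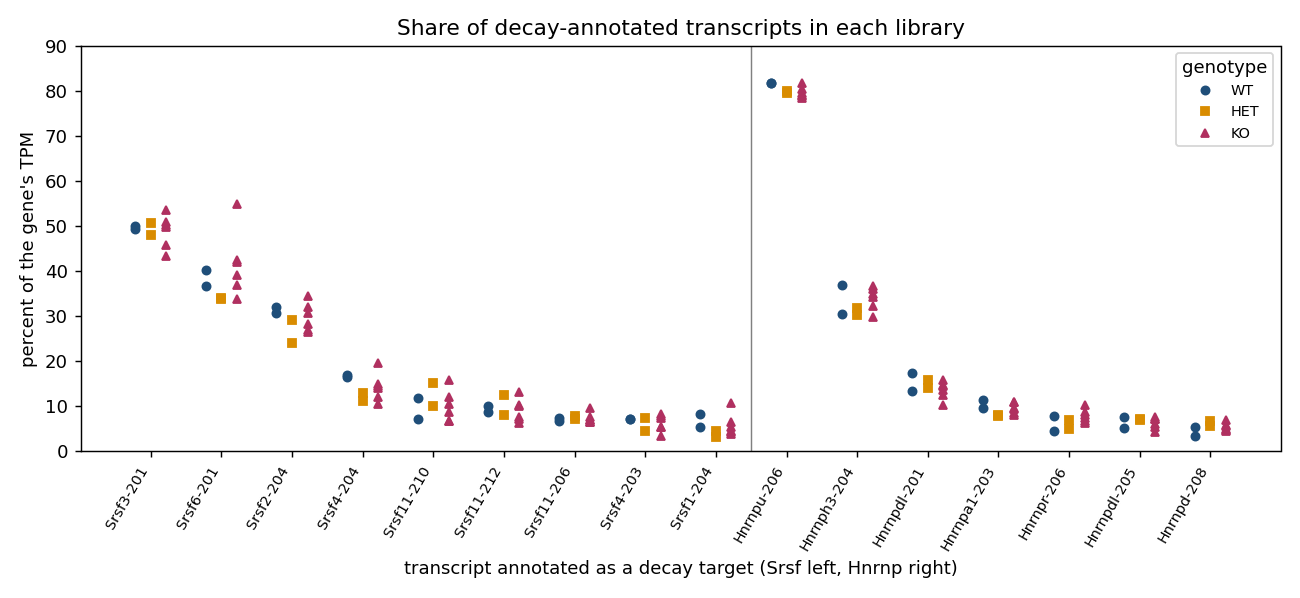
Percent of the TPM of its gene taken by each of the 16 NMD-typed transcripts with a mean of at least 5%, in each library. Srsf transcripts are left of the line and Hnrnp transcripts right of it. Hnrnpu-206 stays between 78.4% and 81.7% in all libraries, and Srsf6-201 reaches 54.9% in KO replicate 6.

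Differences in these shares between the controls and KO were small. HET alone was not compared with other groups by the permutation test below. Named after their values were seen, the NMD-typed transcripts of Srsf1 took 5.68% and 4.53% in HET and at least 6.37% in every other library. Those of Hnrnpa2b1 took 2.78% and 2.11% in HET and at least 3.325% elsewhere. In the other direction, Hnrnpd-204 took 5.50% and 5.52% in HET and at most 4.18% elsewhere. Such a separation was not limited to the NMD type. The coding Hnrnpa2b1-204 took 57.71% and 57.96% in HET and at most 54.44% elsewhere. The coding Hnrnph3-203 took 19.23% and 19.0% in HET and at least 22.6% elsewhere. How many transcripts of either type separated HET in this way was not counted, so no trait of the NMD type is read from these shares. A two-sided exact permutation test was run on 33 transcripts, the 16 above and those with the smallest usage p or the largest share in the genes with the smallest usage p. Those taken by their usage p were chosen from the same libraries, so their p here is no separate support. The adjustment over the 33 leaves out that choice. In WT against KO, 2 of the 33 had the smallest p that 2 and 6 libraries allow, 0.0357 (exact permutation test, adjusted p = 0.589). One was Hnrnpu-206, which was 2.08 percentage points higher in WT, with both WT libraries just above the highest KO library. The other was Hnrnpc-202, which was taken by its usage p. It was at 0.275% and 0.299% in WT and at most 0.1002% in KO, where 4 libraries were at 0. Both HET libraries were at 0 as well. With both control groups against KO, 0 of 33 passed, and the smallest p was 0.1 (exact permutation test, adjusted p = 0.786), when 0.00476 was possible. The largest difference of means in either comparison was 5.28 percentage points, for Srsf6-201, which was higher in KO. That difference was smaller than the SD among the KO libraries, 7.33 percentage points.

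Transcript usage was also tested over all genes, with each transcript set against the rest of its gene in edgeR's diffSpliceDGE. Of the 25 members with several transcripts after filtering, 0 were called in each of the 4 comparisons. The share of all genes called was 0.039% of 7701 in WT against KO, 0.0996% of 7029 in WT plus HET against KO, 0.0892% of 7847 in HET against KO, and 0.115% of 7847 in WT against HET. At an unadjusted p under 0.05 the members counted 1 of 25, against 2.09% of genes, then 0 of 25, against 1.04%, then 2 of 25, against 3.56%, and 3 of 25, against 2.91%. limma's diffSplice called none either. At that threshold it gave 3, 2, 3 and 3 of 25 in the same order, against 5.1%, 5.63%, 6.24% and 3.48% of genes.

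The member with the smallest p in WT against KO was Hnrnph2, through Hnrnph2-205 (adjusted p = 1.0 in edgeR). That transcript was near 0 in both WT libraries, at 0.0122% and 1.91% in HET, and from 0.00194% to 8.74% in KO, the highest being KO replicate 6. The KO libraries were themselves divided, with 2 below 0.01%. In both comparisons with HET the smallest p was that of Hnrnpa1 (adjusted p = 0.41 for HET against KO and 0.911 for WT against HET in edgeR), through Hnrnpa1-205. In HET against KO, Hnrnpa2b1 followed through Hnrnpa2b1-209. In WT against HET, Hnrnpc came second through Hnrnpc-202 and Hnrnpa2b1 next through Hnrnpa2b1-209. Hnrnpa2b1-209 is of the NMD type and took 3.05% of Hnrnpa2b1 TPM on average. Srsf11-217, the most different transcript of Srsf11 in WT plus HET against KO, took 0% and 2.86% in WT, 0% and 3.21% in HET, and 0.695% to 11.8% in KO. The leading transcripts of the other genes that the rule named differed by less than the spread of their KO libraries. In WT against KO, Srsf10-204 differed by 5.17 percentage points with a KO SD of 6.25, Srsf11-202 by 2.86 with 4.15, and Hnrnpa3-204 by 0.876 with 5.46.

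A list of 70 other splicing genes, holding U1 and U2 components, the kinases and importer of SR proteins, SR-related proteins, further RNA-binding regulators and NMD factors, had 69 members tested and 0 called by edgeR in each comparison. At an unadjusted p under 0.05 there was 1 of 69 in WT against KO, lower in WT, against 2.19% of all genes in either direction. In WT plus HET against KO there were 6 of 69, all higher in the controls, against 4.05% of all genes in that direction. In HET against KO there were 12 of 69, all higher in HET, against 5.46%, and in WT against HET 6 of 69, all lower in WT, against 2.44%. The medians of the list in the 4 comparisons were -0.05, 0.04, 0.11 and -0.17, beside -0.01, -0.02, -0.07 and 0.01 over all genes. The 3 with the smallest p in WT against KO were Mbnl3 (-0.54, SE 0.223), Smg6 (0.69, SE 0.365) and Srrm1 (-0.21, SE 0.117), of which Mbnl3 is a regulator of alternative exons, Smg6 the endonuclease of NMD and Srrm1 a splicing coactivator. Of the 15 U1 and U2 components, 0 had an unadjusted p under 0.05 in WT against KO, against 2.19% of all genes. It was 0 of 15 in WT plus HET against KO, against 6.3%. In HET against KO it was 3 of 15, against 10.2%, and in WT against HET 1 of 15, against 6.42%.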

How the data were processed

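RNA was extracted from sorted cells of 10 mice and sequenced as paired-end libraries (SMART-Seq v4). Per the submitters' processing notes, the authors ran Salmon 0.9.1 and DESeq2 2.11.40.6; the deposited files give, per Gencode vM17 transcript with a coding sequence, an estimated count, a TPM and an effective length, which is an other kind of value used as an offset in 1 alternative. Salmon's options were not given in the sources used here. Salmon divides shared reads by estimation (46.8% of the deposited estimated counts are not whole), so transcripts of a gene share error. Counting intervals were not computed for shares, as reads without molecular identifiers are not independent.

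Estimated counts and TPM were summed per gene, and counts rounded. edgeR 4.0.16 (TMM, filterByExpr, quasi-likelihood test) gave gene levels and diffSpliceDGE transcript usage, in R 4.3.3, with Benjamini-Hochberg adjustment over all genes and a threshold of 0.1. WT against KO used 8 libraries and WT plus HET against KO 10; comparisons with HET used 10 libraries and a term per genotype. DESeq2 1.42.0 and limma 3.58.1 were alternatives. CPM values are TMM-scaled. Scripts were tested on simulated data. Of 154 member transcripts, 149 had the same length in vM21 and 5 another. p-values measure the spread between these libraries.

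Members and gene lists were chosen with earlier results of these data known. Named with values were the 4 most and the least abundant genes of each family, members with an adjusted p under 0.1 or, in comparisons of controls with KO, an unadjusted p under 0.05, the 5 genes with the smallest usage p, the 3 members most variable in KO, NMD-typed transcripts of at least 5%, Zbtb38 and 3 genes of the splicing list. Alternatives were other scalings, filters, tests and thresholds, a replicate block, and each library left out. Some of the marker and splicing genes, and results that rest on them alone, are not reported here.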

Additional observations from a re-analysis of the deposited data

Results flagged for a closer look

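Among 61 sets of 6 KO libraries (28 gene levels in CPM and 33 transcript shares), 5 had one library far from the other five, when chance alone flags about 1 in 20, or 3.05 sets. Srsf7 was at 552 CPM in KO replicate 1, and the next KO library at 513 CPM. Srsf10 was at 197 CPM in KO replicate 2, and the next lowest at 222 CPM. Hnrnph3 was at 111 CPM in KO replicate 2, and the next at 88.6 CPM. In KO replicate 6, Srsf11-217 took 11.8% of Srsf11 TPM, with the next library at 4.76%, and Hnrnpc-207 took 50.1% of Hnrnpc TPM, with the next at 45.5%. The cause was not tested.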

How the results depend on the processing

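The count of members called at the gene level was 0 in all 4 comparisons and stayed 0 under the alternatives run, except for 1 gene (Hnrnpu) in HET against KO with DESeq2 and 2 genes in WT against HET when fitted on the libraries of those 2 groups alone. Over all genes, those 2 fits called 458 of 14354 and 523 of 13220. Transcript usage gave 0 members, except for 1 (Hnrnpa3) in WT plus HET against KO with a replicate block; the block changed no other call of a member. Numbers did not pair samples (correlations from -0.00798 to 0.127). The count of shares under 0.05 in WT against KO was 2, and 1 by estimated counts; leaving out single KO replicates gave 1 to 3, and leaving out a WT replicate cannot reach the threshold. In WT plus HET against KO it was 0, and leaving out single libraries gave 0 to 2 (1 without WT replicate 2, 1 without KO replicate 4 and 2 without KO replicate 5). The cause was not tested. No printed log2 fold change of a single gene turned its direction, but the member median in WT plus HET against KO (0.03) was -0.01 with the replicate block and -0.03 to 0.09 when single libraries were left out. Zbtb38 lost its call in WT against KO on log2(TPM + 1) (1.34) and log2(TPM + 0.1) (1.37), with counts scaled by transcript length (1.19), with the replicate block (2.12), and without 6 of the 8 libraries in turn (2.26 to 2.36). In WT plus HET against KO it lost it under the same first 4 alternatives (1.16, 1.19, 1.04 and 1.86). DESeq2 called 458 genes in all in HET against KO, 5 in WT against KO, 18 in WT plus HET against KO and 125 in WT against HET, where edgeR called 1 each. In HET against KO and in WT against HET the gene that edgeR called was not Zbtb38. With 2 WT and 2 HET libraries, small differences in level were not detectable.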
